A study of Rattus norvegicus with 58 samples.

Results

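Control liver was compared with control kidney in male Harlan Sprague-Dawley rats, over every gene that the array measured with an unambiguous name. The rats belonged to a gavage study of 4-methylcyclohexanemethanol (MCHM), an alcohol used in coal washing, in which each organ was profiled on Affymetrix Rat Genome 230 2.0 arrays after 5 days. The control groups were given 0 mg/kg and hold 5 livers and 5 kidneys, 10 of the 58 arrays. The other 48 arrays, 24 per organ, come from rats given 0.1, 1, 10, 100, 300 or 500 mg/kg, with 4 arrays per organ and dose. The labels give neither age nor diet. The arrays are described as biological replicates, but no label links livers and kidneys of the same animal. The p-values therefore measure the spread between arrays, with the organs treated as unpaired. Members were the arrays that carry the 0 mg/kg label in either organ, and 11259 genes could be tested between them.

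Liver and kidney are both metabolic organs, built around polarised epithelial cells with many mitochondria. Hepatocytes make most plasma proteins, bile acids and urea, and they hold much of the body's cytochrome P450. The kidney filters plasma in the glomerulus through podocytes, and successive tubule segments then recover or secrete solutes: the proximal tubule takes back most sugar, amino acids and phosphate, the thick ascending limb takes up salt, and the distal tubule and collecting duct set the final urine under hormonal control. Both organs make glucose, and both clear foreign compounds by oxidation, conjugation and organic ion transport. RNA was extracted from tissue that holds many cell types, so fewer cells of a type and less RNA per cell cannot be told apart in any value below.

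All values are log2 intensities after robust multi-array averaging (RMA), and a difference is the liver mean minus the kidney mean, so that 1 unit is 2-fold and a positive value is higher in liver. RMA differences compress where a gene is near background, and the files used carry no detection call. A value below its own array's 40th percentile, which lay between 4.65 and 4.71, is therefore called dim, and one above the 60th percentile, between 5.98 and 6.14, bright. Levels of different genes are not compared, because each probe set has its own brightness. Array medians were 5.28 to 5.31 in liver and 5.34 to 5.36 in kidney, close to each other but without overlap. Processing can itself bring medians together, so their closeness is no check that scale plays no part in small differences. Arrays of one organ correlated at r = 0.992 to 0.994 in liver and 0.990 to 0.995 in kidney over all probe sets, against 0.848 to 0.862 between organs, and no pair of arrays was identical. The 3′ minus 5′ probe difference of the control transcript beta-actin was 1.99 ± 0.14 (SD, n = 5) in liver and 1.29 ± 0.02 in kidney, and that of GAPDH 0.38 ± 0.11 and 0.063 ± 0.040. These measures of RNA length or labelling moved with organ throughout, and their part in the differences below was not tested.

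Kidney array 2 stood apart from the other kidneys in transcripts of hepatocytes, and kidney array 1 in a few transcripts of fat. Albumin (Alb), the main plasma protein, read 5.85, 11.70, 3.02, 4.67 and 3.79 on kidneys 1 to 5 and 14.80 to 14.85 on the livers. The 36 plasma proteins averaged 6.51 on kidney 2 against 5.08 to 5.20 on the other kidneys, and kidney 2 was the highest kidney for 26 of them. Of the 374 genes at least 8-fold higher in liver, kidney 2 was the highest kidney for 128 (34.2%), while over all genes it was the highest for 12.2%. No dosed kidney came close to that array for albumin: the 24 dosed kidneys ran from 2.99 to 8.35 with a median of 3.47. On kidney 1, Car3, a carbonic anhydrase abundant in fat and liver, read 9.84 against 3.92 to 5.96 on the other kidneys, and the adipsin gene Cfd 6.08 against 3.56 to 3.69. High values of these genes were not limited to that array: 2 of the 24 dosed kidneys lay above every control kidney for Car3, reaching 13.32, and 2 for Cfd, reaching 11.11. Of the 12 adipose markers listed, 6 were measured, with means of 6.50 on kidney 1 and 5.95 to 6.33 on the others. Cfd is among these 6 and raised the mean on kidney 1, so the mean adds no support beyond Cfd itself. The adipocyte genes Adipoq, Plin1 and Lep did not pass the filter on dim probe sets. That filter asks for at least 4 of 5 arrays of an organ. It therefore drops genes bright on kidney 1 alone, and the values of these adipocyte genes on that array, though deposited, are not given here. The part of other tissue in these arrays was not tested, and values that move by over 1.5-fold without either array are given with both.

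Most measured genes differed between the organs. By limma with Benjamini-Hochberg adjustment, 8764 of 11259 genes (77.8%) passed an adjusted p of 0.05, 3990 higher in liver (35.4% of genes) and 4774 higher in kidney (42.4%). The median difference over all genes was -0.05. With shares this large, a called gene says little by itself, and the size of the difference separates the genes better. The shares of 35.4% and 42.4% are the background of every list count below. Which organ had more calls depended on scaling. Quantile normalization gave 4646 genes higher in liver and 4256 in kidney, and centring on the ribosomal proteins 3247 and 5241. At least 2-fold differences numbered 1217 in liver (10.8%) and 1833 in kidney (16.3%), and at least 8-fold differences 374 in liver (3.32%) and 397 in kidney (3.53%). For 7425 genes (65.9%) the arrays of the organs did not overlap, 3274 higher in liver (29.1%) and 4151 in kidney (36.9%). Among the 374 genes at least 8-fold higher in liver, 123 (32.9%) were dim on every kidney and 66 (17.6%) were bright on every kidney. Of the 397 genes at least 8-fold higher in kidney, 149 (37.5%) were dim on every liver and 95 (23.9%) were bright there. Genes bright in all arrays of one organ and dim in all of the other, whatever their fold, numbered 132 for liver (1.17%) and 165 for kidney (1.47%).

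**Figure D1:**
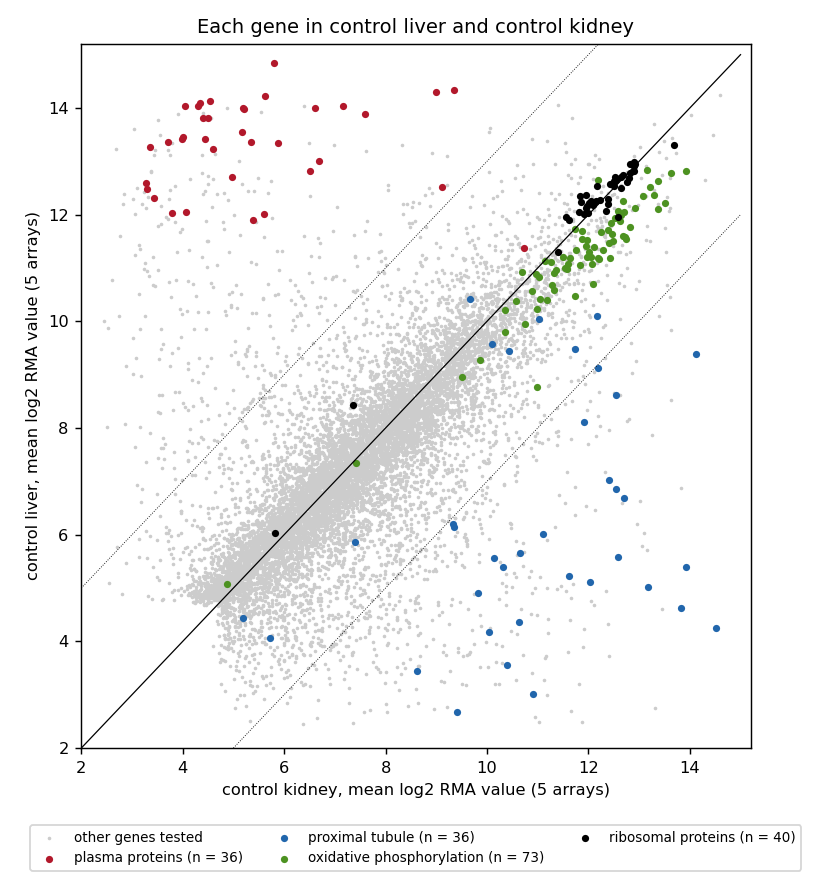
Mean log2 RMA value of each of 11259 genes in 5 control kidneys (x axis) and 5 control livers (y axis). The solid line marks equal values and the dotted lines 8-fold differences; the plasma proteins lie above the solid line, 35 of the 36 proximal tubule genes below it, most oxidative phosphorylation subunits slightly below it and the ribosomal proteins along it.

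The liver's 15 largest differences ran from 10.58 for Cyp2c6v1 to 9.54 for Amy1. Cyp2c6v1, a cytochrome P450, read 13.56, 13.70, 13.66, 13.50 and 13.63 on livers 1 to 5 and 2.76, 4.69, 2.61, 2.73 and 2.39 on kidneys 1 to 5. The kidneys were all below the livers by a wide margin, with kidney 2 the highest of them. Its difference was 10.58 ± 0.34 (SE, adjusted p = 8.23e-12). The glucuronosyltransferase Ugt2b had livers of 13.04 to 13.38 and kidneys of 2.45 to 2.93, a difference of 10.54 ± 0.10. The P450 Cyp3a2 differed by 10.26 ± 0.55 and, without kidney 2, by 10.93. The fibrinogen gamma chain gene Fgg differed by 10.00 ± 0.51 and, without kidney 2, by 10.63. The other genes among the 15 with the largest differences were Fabp1, the liver fatty acid binding protein, Cyp2c13, Itih4, the urea cycle gene Cps1, the alpha-1-antitrypsin gene Serpina1, Apoc1, the oestrogen sulfotransferase Sult1e1, Apoa1, the fetuin gene Ahsg, Inhca, an inhibitor of carbonic anhydrase, and Amy1, an amylase. Their differences ran from 9.99 for Fabp1 to 9.54 for Amy1. Sequences in the Cyp2c, Cyp3a and Ugt2b families are close to each other, and a probe set can read more than its own gene there.

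The kidney's 15 largest differences ran from -10.57 for Cltrn to -8.00 for Slc47a1. Cltrn encodes collectrin, an apical protein that amino acid transporters need at the cell surface. It read 13.43, 13.33, 13.18, 13.31 and 13.35 on kidneys 1 to 5 and 2.74, 2.72, 2.58, 2.80 and 2.91 on livers 1 to 5. All livers were dim, and the difference was -10.57 ± 0.07 (adjusted p = 2.05e-17). The kidney androgen-regulated protein gene Kap read 14.45 to 14.55 on kidneys and 3.71 to 4.60 on livers, a difference of -10.25 ± 0.14. The salt transporter Slc12a1 of the thick ascending limb differed by -9.39 ± 0.24, with kidney 1 at 10.88 below the other kidneys at 11.80 to 12.43. The amino acid transporter Slc7a13 and its partner Slc3a1 differed by -9.20 ± 0.22 and -8.54 ± 0.14. Also among the 15 with the largest differences were Lrrc19, the uromodulin gene Umod, calbindin (Calb1), the claudin Cldn10, the beta-glucosidase Gba3, Tinag, the histamine methyltransferase Hnmt, the phosphate transporter Slc34a1, the sodium pump subunit Fxyd2 and the organic cation exporter Slc47a1. Their differences ran from -8.97 for Lrrc19 to -8.00 for Slc47a1. A second probe set of Slc34a1 read a smaller difference of -2.44 in the same direction.

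**Figure D2:**
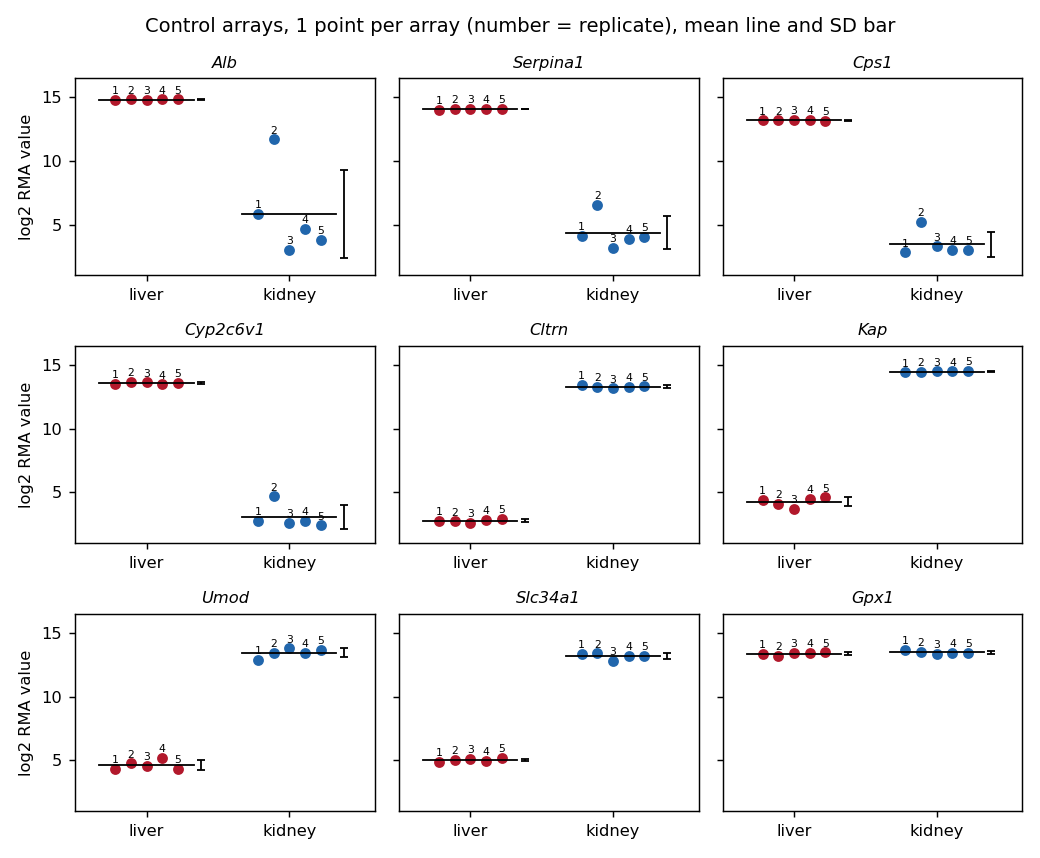
Log2 RMA values of 9 genes on the 5 control livers and 5 control kidneys, 1 point per array with its replicate number, the group mean as a line and the SD as a bar. Kidney 2 is the highest kidney for Alb (11.70), Serpina1, Cps1 and Cyp2c6v1, while Cltrn, Kap, Umod and Slc34a1 separate the organs the other way and Gpx1 overlaps.

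Promoters were searched because the genes with the largest differences share an organ, and the sequences below were chosen because they hold the motif described. RefSeq promoters on the GRCr8 build were matched for 299 of the 374 liver genes, 324 of the 397 kidney genes and 9380 of all genes, and the 250 bases before the start were searched on both strands. HNF1 factors, which act in liver and tubule, bind palindromes with the core GTTAAT. The core was found in 13% of the liver promoters, 7.72% of the kidney promoters, 3.15% of those of 3171 genes within a narrow range of each other (defined below) and 4.07% of all. CAAAGTNCA, a form of the HNF4 site, was found in 4.01%, 3.09%, 0.662% and 1.08%. TATAAA on the gene's strand, between 40 and 16 bases before the start, was found in 8.03%, 3.09%, 0.978% and 1.35%. The median GC content was 52.8% in the liver promoters, 58.2% in the kidney promoters and 60% in all, and CpG observed over expected was 0.279, 0.534 and 0.734. Base composition therefore moved with the lists too, and its part in the motif shares was not tested. A match is a match of letters and not a binding site. Bases 150 to 51 before the start are printed 5′ to 3′ along the gene for albumin (chr14:17907030-17907129, minus strand), Cltrn (chrX:34027175-34027274, minus strand), Kap (chr4:168409083-168409182, minus strand) and Slc34a1 (chr17:9239034-9239133, minus strand), with the core on either strand in capitals.
Alb: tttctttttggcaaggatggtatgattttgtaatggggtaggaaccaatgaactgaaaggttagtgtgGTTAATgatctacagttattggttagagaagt
Cltrn: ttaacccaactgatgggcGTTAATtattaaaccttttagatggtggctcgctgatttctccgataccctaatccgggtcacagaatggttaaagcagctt
Kap: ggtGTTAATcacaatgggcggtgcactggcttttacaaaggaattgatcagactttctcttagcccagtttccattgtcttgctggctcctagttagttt
Slc34a1: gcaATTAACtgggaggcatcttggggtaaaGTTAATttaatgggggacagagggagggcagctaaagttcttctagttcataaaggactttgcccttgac

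Genes with large differences also lay side by side. Of 373 liver genes placed on GRCr8, 105 (28.2%) had another gene of the list as the nearest measured neighbour on at least one side, while 6.30% of all placed genes lay beside such a gene. In kidney it was 57 of 397 (14.4%), against 6.78%. The longest liver run held 7 genes, Hells and then Cyp2c11, Cyp2c6v1, Cyp2c7, Cyp2c12, Cyp2c13 and Cyp2c22. Other runs held the apolipoproteins Apoa1, Apoc3, Apoa4 and Apoa5, the plasma proteins Kng2l1, Hrg, Fetub and Ahsg, and the 3 fibrinogen genes with Lrat. The longest kidney runs were 4 genes of the Nat8 acetyltransferase family and the kallikreins Klk1c4, Klk1 and Klk1b3. Most runs are families of similar sequence, in which probe sets may share signal.

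The measured plasma protein, coagulation and complement genes were all higher in liver. All 36 measured plasma proteins passed the test in that direction, 35 of them by at least 8-fold, with a median of 8.61 against -0.05 over all genes. Serpina1 read 14.04 to 14.13 on livers and 4.09, 6.57, 3.17, 3.87 and 4.02 on kidneys 1 to 5. Its difference was 9.75 ± 0.47, and albumin's was 9.03 ± 1.24 and 10.50 without kidney 2. Apoc1 and Ahsg moved likewise, from 9.74 and 9.60 to 10.35 and 10.32 without that array. All 26 coagulation and complement genes were higher in liver too, 24 by at least 8-fold, with a median of 5.72. Among them C4bpa, which restrains complement, differed by 9.41 ± 0.16, the clotting factor F9 by 8.70 ± 0.12, and the terminal complement genes C8a and C9 by 8.29 ± 0.10 and 8.23 ± 0.17.

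Bile acid and lipoprotein genes were mostly liver genes. Of 19 measured bile acid genes, 16 were higher in liver and 1 in kidney, with a median of 5.19. The rate-limiting enzyme Cyp7a1 read 10.91, 10.73, 10.97, 8.76 and 11.14 on livers 1 to 5, with liver 4 the lowest, and 2.88 to 3.63 on kidneys, a difference of 7.36 ± 0.37. The uptake carriers Slc10a1 and Slco1b2 differed by 7.90 ± 0.15 and 7.45 ± 0.11, the exporter Abcb11 by 7.21 ± 0.11, and the conjugating enzymes Slc27a5 and Baat by 7.71 ± 0.25 and 7.19 ± 0.19. Slc51a, a subunit of the basolateral bile acid exporter, was the exception at -3.38 ± 0.16. Of 22 lipoprotein and cholesterol genes, 20 were higher in liver, with a median of 2.99, led by Lcat at 8.53 ± 0.15, the hepatic lipase gene Lipc at 8.18 ± 0.16 and Mttp, which loads lipid onto apolipoprotein B, at 7.65 ± 0.11. The exceptions were megalin (Lrp2), the endocytic receptor of the proximal tubule, at -5.69 ± 0.12, and the lipase of peripheral tissues Lpl at -1.22 ± 0.20.

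**Figure D3:**
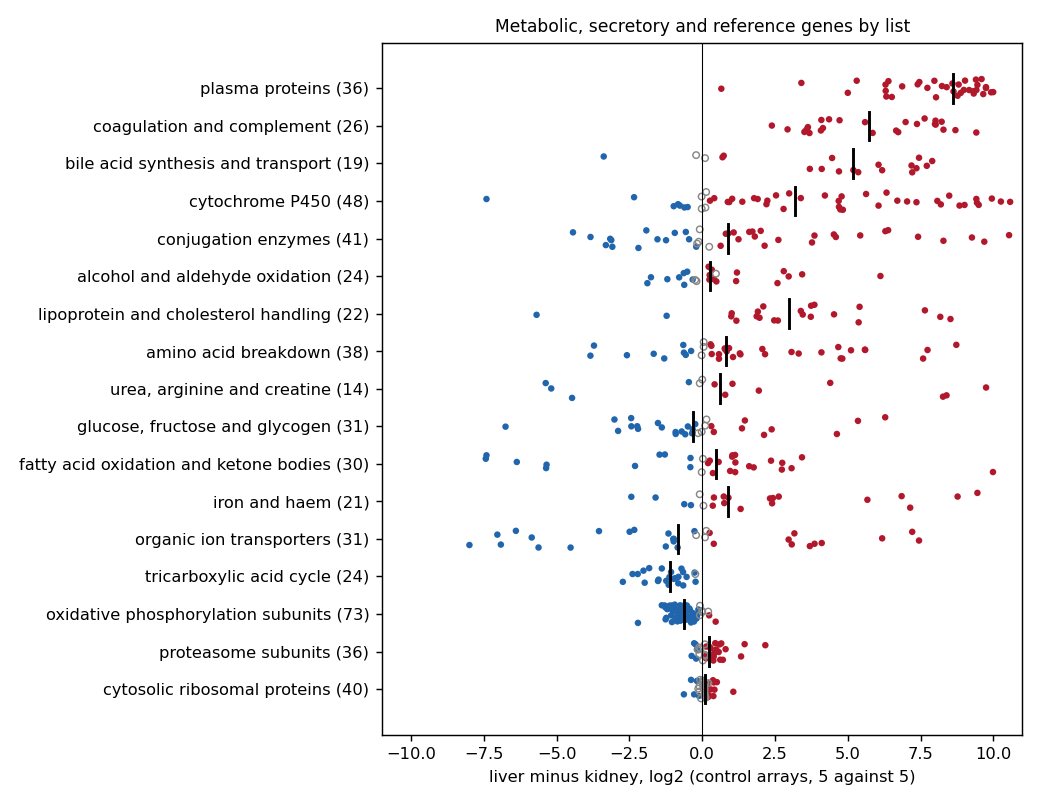
Liver minus kidney difference (log2) of every measured gene in 17 lists of secretion, metabolism and reference genes, with the number measured in brackets. Red and blue points passed the test as higher in liver or kidney, open grey points did not, and black bars are medians, from 8.61 for plasma proteins to -1.10 for the tricarboxylic acid cycle.

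Of 14 urea, arginine and creatine genes, 8 were higher in liver and 4 in kidney, where 35.4% and 42.4% of all genes were. Cps1 and Otc, the mitochondrial steps of the urea cycle, differed by 9.75 ± 0.36 and 8.27 ± 0.14. Arg1, the cytosolic arginase that releases urea, read 12.71 to 12.85 on livers and 4.11 to 4.81 on kidneys, a difference of 8.39 ± 0.11. Its mitochondrial relative Arg2 read 3.88 to 4.06 on livers and 7.36, 8.51, 8.81, 8.61 and 8.82 on kidneys 1 to 5, a difference of -4.47 ± 0.23. Kidney 1 was the lowest kidney for Arg2, but it still lay above every liver. The steps that join citrulline to arginine differed less. Ass1 was slightly higher in kidney at -0.46 ± 0.09 (adjusted p = 2.83e-04), with livers of at most 11.87 and kidneys of at least 11.89. Asl, which was chosen after its values were seen, differed by 0.00 ± 0.10 with overlapping arrays (adjusted p = 0.991). Creatine synthesis starts with Gatm, which was higher in kidney at -5.38 ± 0.09, and the creatine transporter Slc6a8 differed by -5.19 ± 0.12. The second enzyme, Gamt, was higher in liver at 1.94.

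Amino acid breakdown leaned to liver, with 26 of 38 genes higher there and 9 in kidney, and a median of 0.81. The tryptophan dioxygenase Tdo2 differed by 8.73 ± 0.13, the histidine enzymes Uroc1 and Hal by 7.74 ± 0.14 and 5.60 ± 0.11, and Agxt, which removes glyoxylate, by 5.59 ± 0.09. The methionine adenosyltransferases divided: Mat1a read 12.32 to 12.50 on livers and 4.29 to 5.26 on kidneys, and Mat2a 7.28 to 7.99 on livers and 10.92 to 11.72 on kidneys. Their differences were 7.59 ± 0.14 and -3.72 ± 0.16. The hydroxyacid oxidases divided in the same way, with Hao1 at 5.11 ± 0.16 and Hao2 at -1.67 ± 0.05. Other genes higher in kidney were the D-amino acid oxidase Dao at -3.84 ± 0.13, Agxt2 at -2.59 ± 0.05 and the glutamine synthetase Glul at -1.30 ± 0.09.

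Of 31 genes of glucose metabolism, 9 were higher in liver and 18 in kidney, with a median of -0.33. The liver glycogen synthase Gys2 differed by 6.29 ± 0.08 and the phosphorylase Pygl by 2.39 ± 0.07, while Gys1, the synthase of other tissues, differed by -0.91 ± 0.12. The glucokinase regulator Gckr differed by 4.63 ± 0.09, and Pfkfb1, which sets the level of fructose 2,6-bisphosphate, by 5.35 ± 0.10. Ldhb read 6.13 to 6.31 on livers and 12.90 to 13.06 on kidneys, a difference of -6.76 ± 0.05, and Ldha 12.61 to 12.77 and 10.39 to 10.69, a difference of 2.12 ± 0.06. The aldolase Aldoa and the phosphofructokinase Pfkm differed by -3.02 ± 0.06 and -2.89 ± 0.10, although 1 other probe set of Pfkm showed no difference (0.02). The transporters Slc2a2 and Slc2a1 differed by 1.47 ± 0.12 and -1.39 ± 0.20. The gluconeogenic enzymes, which both organs use, were closer: Fbp1 differed by -0.91 ± 0.06, and Pck1 by -0.35 ± 0.14. The call of Pck1 (adjusted p = 0.0398) was lost in 14 of 24 alternatives, with values from -0.47 to -0.12. Both genes were chosen after their values were seen.

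Of 30 fatty acid and ketone genes, 18 were higher in liver and 10 in kidney, with a median of 0.47. Oxct1, which lets a tissue burn ketone bodies, read 5.93, 5.42, 5.50, 6.10 and 5.62 on livers 1 to 5 and 13.09 to 13.22 on kidneys, a difference of -7.43 ± 0.11. The fatty acid hydroxylase Cyp4a8 differed by -7.41 ± 0.15, the acyl-CoA synthetase Acsm2 by -6.37 ± 0.13 and the dehydrogenase Bdh2 by -5.35 ± 0.10. The binding proteins were opposed: Fabp1 read 13.87 to 13.92 on livers and 3.17 to 6.01 on kidneys, and Fabp3 6.26 to 6.49 on livers and 11.60 to 11.87 on kidneys. Their differences were 9.99 ± 0.43 and -5.36 ± 0.07. The carnitine transferases were closer, with Cpt1b at -1.47 ± 0.22 and Cpt1a at 0.37 ± 0.14, whose call (adjusted p = 0.0335) was lost in 8 of 24 alternatives.

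**Figure D4:**
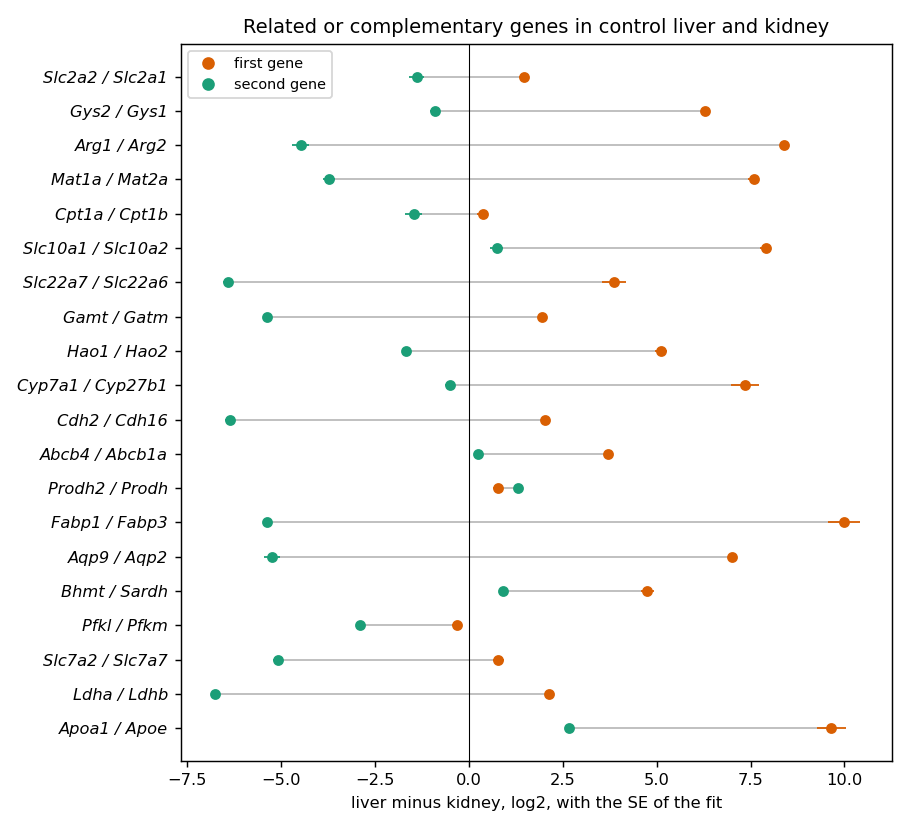
Liver minus kidney difference (log2) of both genes in each of 20 pairs of related or complementary genes, with the standard error of the fit. In 14 pairs the genes were called in opposite directions, such as Arg1 at 8.39 and Arg2 at -4.47, and Fabp1 at 9.99 and Fabp3 at -5.36.

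These pairs were part of a list of 30 pairs of isoforms or complementary enzymes, of which 20 had both genes measured. In 14 of the 20 the genes were called in opposite directions. The water channels gave another such pair, with Aqp9, which also carries glycerol, at 7.0 ± 0.08 and the vasopressin-regulated Aqp2 at -5.24 ± 0.21. The pairs were drawn up with knowledge of where such isoforms are used, so their share is a description and is not set against the 77.8% of all genes called.

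Drug-metabolising enzymes were mostly but not only liver genes. Of 48 cytochromes P450, 37 were higher in liver and 7 in kidney, with a median of 3.19. Those higher in kidney included Cyp4a8, the arachidonate epoxygenase Cyp2c23 at -0.83 ± 0.08, Cyp27b1, which activates vitamin D, at -0.50 ± 0.13, and Cyp1a1. Cyp1a1 is induced through the aryl hydrocarbon receptor, and it read 5.28, 8.58, 8.19, 7.23 and 8.24 on kidneys 1 to 5 and 4.57 to 5.51 on livers. Kidney 1 overlapped the livers, and the difference was -2.34 ± 0.51 (adjusted p = 9.21e-04). Of 41 conjugation enzymes, 23 were higher in liver and 14 in kidney, with a median of 0.90. Over all genes those shares were 35.4% and 42.4%. Ugt2b15 differed by 9.26 ± 0.12 and Sult1e1 by 9.69 ± 0.40, against -4.44 ± 0.08 for the sulfotransferase Sult1c2, -3.84 ± 0.11 for the glutathione transferase Gstp1 and -3.09 ± 0.17 for Nat8, which acetylates cysteine conjugates.

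Primary alcohols such as MCHM can be oxidised by alcohol and aldehyde dehydrogenases, and the genes of this list went both ways. Of 24 measured, 13 were higher in liver and 8 in kidney, with a median of 0.25, where 35.4% and 42.4% of all genes were. Aldh1l2, the mitochondrial formyltetrahydrofolate dehydrogenase, differed by 6.12 ± 0.24, the alcohol dehydrogenases Adh7 and Adh4 by 3.43 ± 0.15 and 2.80 ± 0.13, and the fatty aldehyde dehydrogenase Aldh3a2 by 2.97 ± 0.09. Higher in kidney were the aldehyde reductases Akr7a3 at -1.88 ± 0.15 and Akr1a1 at -1.76 ± 0.06, and the retinal dehydrogenase Aldh1a1 at -0.52 ± 0.13. For Aldh1a1 the organs overlapped, with livers at 10.99 to 11.85 and kidneys at 11.72 to 12.02.

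Of 31 organic ion transporters, 11 were higher in liver and 17 in kidney, with a median of -0.84. Over all genes 35.4% were higher in liver and 42.4% in kidney, so the liver share of this list lay at the background. Liver stood higher in Slco1b2, Abcb11, the uptake carrier Slco1a4 at 6.18 ± 0.11, the conjugate exporter Abcc2 at 4.10 ± 0.14 and Slc22a7 at 3.86 ± 0.32. Kidney stood higher in the cation exporter Slc47a1 at -8.00 ± 0.11, the cation carrier Slc22a2 at -6.92 ± 0.17, the anion carrier Slc22a6 at -6.40 ± 0.13 and Slco1a6 at -7.04 ± 0.32. Kidney 1 was the lowest kidney for Slc22a7 at 5.42 against 7.19 to 7.59, and for Slco1a6 at 8.80 against 10.35 to 10.83.

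Measured markers of the nephron segments were higher in kidney nearly throughout, which goes with the tissue labels. A marker dim in liver was measured only if it passed the filter in kidney, so these counts are no independent check of the tissue. Not all listed markers were measured: 36 of 40 for the proximal tubule, 12 of 14 for the thick ascending limb, 10 of 15 for podocytes and 8 of 12 for the medulla. The proximal tubule held 35 of 36 measured genes higher in kidney, 27 by at least 8-fold, with a median of -4.97. Slc34a1, the phosphate transporter under parathyroid control, read 13.35, 13.40, 12.80, 13.18 and 13.18 on kidneys 1 to 5 and 4.89 to 5.15 on livers, a difference of -8.17 ± 0.10. The cystine and dibasic amino acid transporter Slc7a9 differed by -7.89 ± 0.18. The exception was the sulfate and oxalate exchanger Slc26a1, higher in liver at 0.76 ± 0.08. The thick ascending limb had 10 of 12 genes higher in kidney and a median of -5.27, with Umod at -8.84 ± 0.19, the antagonist of bone morphogenetic proteins Sostdc1 at -6.96 ± 0.20 and the potassium channel Kcnj1 at -5.79 ± 0.18. Umod read 12.88, 13.47, 13.79, 13.42 and 13.68 on kidneys 1 to 5. The claudin Cldn14 was the exception at 2.80 ± 0.10.

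The distal segments followed. In the distal convoluted and connecting tubule 8 of 11 genes were higher in kidney, with a median of -1.66, among them Calb1 at -8.68 ± 0.23, the kallikrein Klk1 at -7.85 ± 0.12, the potassium channel Kcnj16 at -7.68 ± 0.10 and the thiazide-sensitive transporter Slc12a3 at -3.52 ± 0.17. Of 14 principal cell genes, 12 were higher in kidney, with a median of -3.24. The water channel Aqp3 differed by -5.87 ± 0.13, and Hsd11b2, which guards the mineralocorticoid receptor from corticosterone, by -4.67 ± 0.08. Aqp2 read 10.16, 10.12, 11.37, 10.26 and 10.70 on kidneys 1 to 5. The sialyltransferase St6gal1 went the other way at 0.69 ± 0.22, with kidney 3 at 11.67 reaching the lowest livers. Of 16 listed intercalated cell genes 9 were measured, and all 9 were higher in kidney, with a median of -3.69. They were led by the proton pump subunits Atp6v1g3 at -7.45 ± 0.08 and Atp6v0a4 at -7.44 ± 0.09, and the regulator Foxi1 differed by -3.69 ± 0.16. Medullary genes of osmolyte and urea handling were higher in kidney in 6 of 8 cases, with a median of -0.88.

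Of 10 podocyte genes, 9 were higher in kidney, with a median of -1.31. The slit diaphragm gene Nphs1 read 6.69, 6.13, 6.23, 5.92 and 5.58 on kidneys 1 to 5 and 2.64 to 3.24 on livers, a difference of -3.16 ± 0.19. Podxl differed by -3.18 ± 0.19, Ptpro by -2.97 ± 0.18 and the regulator Wt1 by -2.69 ± 0.20. Plce1 went the other way at 0.81 ± 0.12.

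Kidney samples differed among themselves in the means of the segment lists. The mean of the thick ascending limb genes was 9.34, 9.69, 10.18, 9.68 and 9.90 on kidneys 1 to 5, that of the principal cell genes 8.13, 8.22, 8.66, 8.12 and 8.42, and that of the medullary genes 8.15, 8.40, 8.80, 8.29 and 8.46. Kidney 3 was the highest in all of these lists, and it was the lowest in the distal convoluted list (8.43) and the proximal tubule list (10.85 against 10.96 to 10.99). Podocyte genes ran from 7.26 on kidney 1 to 6.84 on kidney 5. These shifts were smaller than the organ differences, since the livers' means for the same lists lay between 4.80 and 7.0. The labels do not say which piece of kidney was taken, and its part in the spread was not tested.

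**Figure D5:**
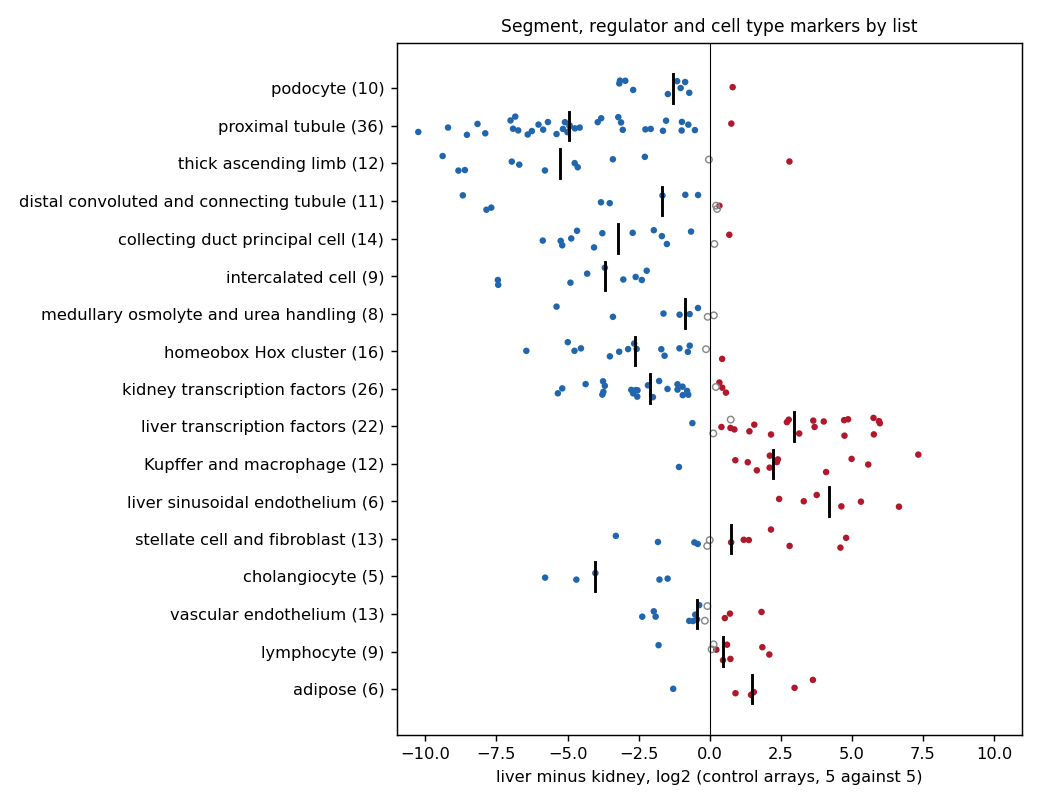
Liver minus kidney difference (log2) of every measured gene in 17 lists of nephron segments, regulators and other cell types, with the number measured in brackets. Red and blue points passed the test as higher in liver or kidney, open grey points did not, and black bars are medians; the segment lists lie left of 0 and the sinusoidal endothelium and liver transcription factors right of it.

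Regulators followed the organs. Of 22 liver transcription factors, 19 were higher in liver, with a median of 2.96, among them Onecut2 at 5.95 ± 0.12, Foxa2 at 5.77 ± 0.09 and the drug receptor Nr1i3 at 4.87 ± 0.13. Hnf4a, often named as a liver regulator and also active in the proximal tubule, was slightly higher in kidney at -0.61 ± 0.07, with livers at 11.72 to 12.01 and kidneys at 12.26 to 12.54, but its other 2 probe sets showed no difference that passed the test (0.056 and -0.018). Of 26 kidney transcription factors, 22 were higher in kidney, with a median of -2.09. Emx2, needed for kidney formation, differed by -5.34 ± 0.12, the collecting duct factor Tfcp2l1 by -5.19 ± 0.09, Tfap2b by -4.36 ± 0.12 and Gata3 by -3.78 ± 0.19. The coactivator of mitochondrial genes Ppargc1a differed by -3.74 ± 0.10.

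Hox genes carry positional identity along the body axis, and 14 of 16 were higher in kidney, with a median of -2.61. Hoxd8 read 10.45 to 10.73 on kidneys and 3.97 to 4.43 on livers, a difference of -6.45 ± 0.09. Hoxa9 and Hoxa10 differed by -4.99 ± 0.09 and -4.76 ± 0.10, with livers of at most 3.36. Hoxc4 was the exception at 0.44 ± 0.07.

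Of 15 renal hormone and receptor genes, 5 were higher in liver and 10 in kidney, with a median of -0.66. The liver share was near the 35.4% over all genes. Angiotensinogen (Agt), the substrate of renin, differed by 4.26 ± 0.19, the angiotensin receptor Agtr1a by 1.34 ± 0.10 and the vasopressin receptor Avpr1a by 5.88 ± 0.14. The ageing-related co-receptor Kl, the calcium-sensing receptor Casr and the parathyroid hormone receptor Pth1r differed by -4.93 ± 0.20, -4.10 ± 0.13 and -3.56 ± 0.08, although another probe set of Pth1r gave -0.29. In the growth hormone axis 9 of 22 genes were higher in liver and 7 in kidney, near the 35.4% and 42.4% over all genes. Igf1 read 13.18 to 13.38 on livers and 8.22, 8.03, 9.40, 8.01 and 7.97 on kidneys 1 to 5, a difference of 4.98 ± 0.22. Its carrier Igfals differed by 3.63 ± 0.18 and the feedback inhibitor Socs2 by 3.19 ± 0.28. The binding protein Igfbp5 differed by -7.24 ± 0.13 and the scavenging receptor Igf2r by -3.54 ± 0.13. The 5 probe sets of Igfbp5 all read higher in kidney, by 0.42 to 7.24. The prolactin receptor Prlr differed by -2.69 ± 0.35.

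Of 30 junction and keratin genes, 12 were higher in liver and 17 in kidney, with a median of -0.88. The share higher in liver was near the 35.4% over all genes. Cldn10, Cldn8 and the cadherin Cdh16 differed by -8.61 ± 0.14, -7.30 ± 0.13 and -6.36 ± 0.12. The gap junction gene Gjb1 and the keratin Krt18 differed by 4.53 ± 0.06 and 4.41 ± 0.19. Of 21 iron and haem genes, 15 were higher in liver and 4 in kidney, with a median of 0.90. The haem scavenger Hpx differed by 9.45 ± 0.18, the iron hormone hepcidin (Hamp) by 7.14 ± 0.25 and the sensor Tfr2 by 6.85 ± 0.16, against -2.44 ± 0.08 for the iron importer Slc11a2.

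Most listed mitochondrial genes were higher in kidney. Of 73 oxidative phosphorylation subunits, 66 were higher in kidney and 2 in liver, with a median of -0.64, as were 23 of 24 genes of the tricarboxylic acid cycle, with a median of -1.10. At least 2-fold differences were found for 13 of the subunits and 13 of the cycle genes. The background share of genes higher in kidney was 42.4%. The succinate dehydrogenase Sdha differed by -1.39 ± 0.06, and the isocitrate dehydrogenases Idh3g and Idh2 by -2.73 ± 0.05 and -2.39 ± 0.06. Uqcrq was 1 of the subunits higher in liver, at 0.46 ± 0.04. The oxidative phosphorylation median stayed between -0.43 and -0.73 under 4 other scalings. The ribosomal proteins were near equal, 16 of 40 higher in liver and 6 in kidney with a median of 0.09. Their liver share was near the 35.4% over all genes. The balance of 16 and 6 did depend on scaling: cyclic loess gave 32 and 2, and quantile normalization 12 and 10. Rps27l was the ribosomal gene with the largest difference, at 1.07 ± 0.08. Of 36 proteasome subunits, 22 were higher in liver and 5 in kidney, with a median of 0.24. The immunoproteasome subunits Psmb8, Psmb9 and Psmb10, which replace the standard catalytic subunits in immune cells, led them at 2.17 ± 0.11, 1.46 ± 0.07 and 1.33 ± 0.11.

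Resident cells other than the main epithelium also separated the organs. Of 12 macrophage genes, 11 were higher in liver, with a median of 2.24. The Kupffer cell genes Cd5l and Clec4f differed by 7.34 ± 0.10 and 5.58 ± 0.13, with Cd5l dim on every kidney at 2.29 to 2.72. Lyz2, a lysozyme of many macrophages, was higher in kidney at -1.08 ± 0.07. All 6 sinusoidal endothelial genes were higher in liver, with a median of 4.20, led by Fcgr2b at 6.66 ± 0.14 and Dnase1l3 at 5.32 ± 0.16. Of 13 vascular endothelial genes, 8 were higher in kidney and 3 in liver, with Plvap, a component of fenestrated vessels, at -2.37 ± 0.08 and Ehd3, of glomerular vessels, at 1.82 ± 0.18. Stellate and fibroblast genes divided, 7 of 13 higher in liver and 4 in kidney, with the retinoid-storing enzyme Lrat at 4.80 ± 0.14 and decorin (Dcn) at -3.30 ± 0.18. Over all genes 35.4% were higher in liver and 42.4% in kidney, the background of these cell type counts. All 5 measured cholangiocyte genes were higher in kidney, with a median of -4.02, among them Krt7 at -5.79 ± 0.14, Spp1 at -4.69 ± 0.26 and Epcam at -4.02 ± 0.07, which tubule epithelium also makes. Of 9 lymphocyte genes, 6 were higher in liver and 1, the antigen presentation chain Cd74, in kidney at -1.80 ± 0.14. Markers of other tissues were mostly unmeasured: of 12 adrenal markers 2 were measured, both higher in kidney, of 15 pancreatic markers 3, of which 2 were higher in liver and 1 in kidney, and of 12 skeletal muscle markers 1, with a difference of -0.15. Of 5 erythroid genes, 1 was higher in each organ, and of the 6 adipose genes 5 were higher in liver.

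Genes that the organs share were taken as those whose 95% confidence interval for the difference lay inside -0.5 to 0.5. There were 3752 of them (33.3%), and 881 (7.82%) lay inside -0.25 to 0.25. Examples were taken from the 10 whose probe sets were brightest, a choice that says nothing of transcript levels between genes. They included COX2, the mitochondrially encoded cytochrome oxidase subunit, the selenium carrier Selenop, the elongation factor Eef1a1, the antioxidant enzymes Gpx1, Sod1 and Cat, the glutathione transferase Gsta1 and the cortisone reductase Hsd11b1. Another kept probe set of Selenop was called higher in liver at 0.69, outside this range. Gpx1 read 13.23 to 13.48 on livers and 13.38 to 13.69 on kidneys, a difference of -0.11 ± 0.06 (adjusted p = 0.129). A gene in this range can still pass the test between organs. COX2 did so at -0.34, Eef1a1 and Gsta1 at -0.21 each, all with arrays that did not overlap, and Cat at 0.25. Hsd11b1, at 0.20, did not (adjusted p = 0.0505). COX2 lay at the top of the arrays' range, at 14.23 to 14.63, where saturation can compress a difference, and its part was not tested. Within this narrow range the direction depends on scaling: under cyclic loess Eef1a1, Gsta1, Selenop and Sod1 moved from -0.21, -0.21, -0.16 and -0.23 to 0.033, 0.028, 0.094 and 0.0089.

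Some genes varied far more within an organ than the rest. The median SD over the 5 arrays was 0.129 in liver and 0.127 in kidney, while 11 genes in liver and 36 in kidney, or 28 without kidney 2, had an SD above 1. The 5 most variable genes in liver were Abhd3, Bcl6, Cdh17, Ubd and Onecut1. The lipase Abhd3 read 8.08, 8.27, 5.09, 3.65 and 3.00 on livers 1 to 5 and 7.73 to 8.66 on kidneys, so livers 1 and 2 overlapped the kidneys. Its difference was -2.47 ± 0.90 (adjusted p = 0.0238) and ran from -1.81 without liver 5 to -3.13 without liver 2, and the call was lost without liver 3, 4 or 5. The repressor Bcl6 read 5.43, 9.83, 6.39, 6.96 and 10.05 on livers and 7.33, 9.96, 9.96, 7.21 and 10.10 on kidneys. Onecut1, a hepatocyte factor, read 8.83, 7.89, 10.46, 10.61 and 7.23 on livers and at most 3.20 on kidneys. The intestinal cadherin Cdh17 read 8.98, 5.54, 6.33, 9.60 and 9.02 on livers and 4.56 to 5.00 on kidneys, a difference of 3.12 ± 0.66 and of 3.71 without liver 2.

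In kidney the most variable were Alb, Mx2, Car3, Rup2 and Tmem174. The interferon-induced gene Mx2 read 10.27, 4.54, 8.57, 8.37 and 4.02 on kidneys 1 to 5 and 6.71, 4.94, 6.06, 6.81 and 4.32 on livers 1 to 5, with replicates 2 and 5 the lowest in each organ. Ubd, the ubiquitin-like gene FAT10 that interferon and tumour necrosis factor induce, read 7.21, 4.12, 6.24, 6.85 and 3.90 on kidneys and 7.63, 4.37, 8.04, 8.66 and 5.51 on livers, also lowest on replicates 2 and 5. Neither gene passed the test between organs, at -1.39 ± 1.06 and 1.18 ± 0.86. Mx2 ran from -0.61 without kidney 1 to -2.17 without kidney 5, and Ubd gave 1.80 without liver 2. Tmem174, a proximal tubule gene, read 7.60 and 8.23 on kidneys 1 and 4 and 11.37 to 11.46 on the others, with a difference of -6.49 ± 0.70 and of -7.09 without kidney 1. Car3 differed by 8.38 ± 0.92 and by 9.46 without kidney 1, and Rup2 by 9.13 ± 0.75 and by 9.98 without kidney 2. Scd and Thrsp, lipogenic genes chosen after their values were seen, differed by 4.85 ± 0.68 and 6.16 ± 0.62, and without kidney 1 by 5.63 and 6.92.

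The organ differences were compared with those of the 48 dosed arrays, which share no array with the controls. A second fit, of the mean liver minus kidney difference over the 6 doses, called 10119 genes (89.9%). Of the 8764 genes called in controls, 8753 (99.9%) had the same sign there, 8661 (98.8%) were also called, and none was called with the opposite sign. All 3050 genes with a difference of at least 2-fold had the same sign and were called again, and the median shift in size over them was 0.11. Of the 2495 genes not called in controls, 1991 (79.8%) had the same sign, 1334 (53.5%) were called with that sign and 124 with the opposite sign. Cltrn differed by -10.44 to -10.63 at every dose, and Kap by -10.14 to -10.59. Albumin differed by 9.55 to 11.53 by dose, with a mean of 10.60 ± 0.33 (SE). Arg1 and Arg2 gave means of 8.67 ± 0.09 and -4.25 ± 0.09, and Asl -0.09 ± 0.04. Abhd3 differed by -3.33 to -4.61 by dose, and the dosed livers had a median of 3.30 and a highest value of 8.05. Mx2 and Ubd were called in the dosed arrays, at -2.0 ± 0.39 and 1.16 ± 0.40, and Bcl6 was not, at -0.45 ± 0.39. Whether a difference changed with dose was not tested here.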

How the data were processed

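The labels and the deposited values alone were used. Total RNA was labelled from an oligo-dT primer and hybridised to 1 array per organ sample, per the labels' protocols. The deposited table holds log2 values of 31099 probe sets made with RMA, per the submitters' processing notes, and the software version and the gene annotation behind it are not given in the sources used here. No depth exists for arrays; the 5 arrays per organ limit the precision. Of the probe sets, 20826 carry 1 gene symbol in the platform annotation, 436 several and 9780 none, and 57 are array controls. A probe set was kept if it exceeded its array's 40th percentile on at least 4 of 5 arrays of either organ, and the brightest kept one stood for a gene. Of 2945 genes with several kept probe sets, 249 had probe sets called in both directions. The 10 control arrays were fitted with limma 3.58.1 in R 4.3.3 (lmFit, eBayes with an intensity trend, two-sided, Benjamini-Hochberg over all genes). The fit was also tried on simulated data with far fewer and smaller differences than here, so that trial does not cover this setting. Errors are standard errors of the fit unless marked SD. Genes named were a selection of the 15 largest differences each way, the 6 largest and the contrary members of each list, the pairs, the 5 most variable genes per organ and the 10 brightest alike genes. The comparison, the 41 lists and the rules were chosen with earlier results of these data known. Alternatives covered filters, probe set choice, scalings, model settings, a replicate block and leaving out each array. Chromosome order and promoters came from RefSeq (GRCr8).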

Additional observations from a re-analysis of the deposited data

Results flagged for a closer look

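A sample's distance from the rest of its group was examined for the named genes and 41 list means in each organ. A group was singled out where 1 array lay far from the other 4 values (Dixon's test at 95%). Chance flags about 1 in 20 groups where these are independent and not chosen by their values. Neither holds here: the named genes include the most variable ones and some chosen after their values were seen, and many move together. The counts are therefore a description and are not set against that rate. An array was singled out in 37 of 402 gene groups and 6 of 82 list groups. In 12 of the 37 the array was kidney 2, on the high side.

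Kidney 2 was high for Ahsg at 7.43, Amy1 at 3.50, Apoc1 at 6.72, Cps1 at 5.20, Cyp2c13 at 5.34, Cyp2c6v1 at 4.69, Cyp3a2 at 6.21, Fabp1 at 6.01, Fgg at 6.56, Inhca at 4.82, Serpina1 at 6.57 and Sult1e1 at 5.39. All of these are among the 15 genes with the largest liver differences. The plasma protein mean was high on the same array at 6.51. The highest other kidney for Ahsg read 3.90 and for Fgg 3.56.

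Kidney 1 was high for Cfd at 6.08, Igfals at 7.15, Klk1 at 11.49, Scd at 8.70, Slco1b2 at 3.92 and Thrsp at 7.57. It was low for Akr7a3 at 12.19, Arg2 at 7.36, Cyp4a8 at 11.92, Hnmt at 9.72, Slc22a7 at 5.42, Slc7a13 at 12.81 and Slco1a6 at 8.80, and for the mean of the organic ion transporters at 7.76. The part of tissue composition in these values was not tested.

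Kidney 3 was low for Aldh1l2 at 2.99, Baat at 4.59, Cyp27b1 at 5.36, Slc6a8 at 10.92 and the proximal tubule mean at 10.85, and high for Igf1 at 9.40 and the Hox mean at 7.43. Kidney 4 was low for Sdha at 12. In liver, the bile acid enzyme Cyp7a1 was low on liver 4 at 8.76, hepcidin (Hamp) low on liver 1 at 11.44 and Tdo2 low on liver 3 at 12.22. Liver 2 was high for Idh3g at 9.31 and Slc12a3 at 4.98, and liver 1 for Psmb8 at 9.30. The means of the plasma proteins, at 13.29, and of the coagulation and complement genes, at 11.56, were low on liver 3.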

How the results depend on the processing

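The counts of calls, of 2-fold and 8-fold genes stayed within 1.5 times of the values reported under the filters, probe set choices, scalings and fits tried, apart from the following. A test against a minimum of 1.5-fold called 3765 genes, 1518 higher in liver and 2247 in kidney. The count inside a narrow range was 5648 with no filter on dim probe sets and 881 with a margin of 0.25. With bright set at the 70th and dim at the 30th percentile, 69 liver genes and 66 kidney genes met the rule. Leaving out each array in turn gave 8525 to 8637 calls, 3853 to 3899 higher in liver and 4635 to 4752 in kidney, 369 to 377 and 390 to 402 genes at 8-fold, 1204 to 1227 and 1811 to 1862 at 2-fold, and 3567 to 3685 in the narrow range. Without both kidneys 1 and 2, an alternative chosen after seeing the data, 8402 genes were called.

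The share of calls higher in liver was 45.5%, and it ran from 38.3% when arrays were centred on the ribosomal proteins to 52.2% after quantile normalization, while the median difference over all genes moved from -0.14 to 0.05. Replicate numbers are shared between the organs, but no label ties them to an animal, so the numbers were not taken to pair the arrays. Deviations of same-numbered arrays correlated at -0.033 to 0.096, with a mean of 0.039. Those of differently numbered arrays correlated at -0.135 to 0.135, with a mean of -0.0097. The correlation to be found between organs of the same rat is not known, so these values cannot decide the pairing. Deviations were taken from each organ's own mean, which ties the 2 mean correlations to each other. Of the 5 livers, 3 correlated best with the kidney of their own number, but the highest correlation, 0.135, was between different numbers. The fit with the replicate number as a block called 8554 genes. Under cyclic loess the small differences of Eef1a1 (0.033), Gsta1 (0.028), Selenop (0.094) and Sod1 (0.0089) changed sign, and the cause was not tested. That of Selenop also changed sign when its 2 kept probe sets were averaged (0.26). Those probe sets were called in opposite directions, the brighter at -0.16 and the other at 0.69. Values of dim genes are limited by signal over background, so differences against a dim organ are the least certain in size.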
